A study of Arabidopsis thaliana with 12 samples.

Results

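Seedlings of the Arabidopsis thaliana mutant mbd6 were compared directly with seedlings of the mutant mbd4. The comparison used 6 of the 12 arrays of the series, 3 of mbd6 and 3 of mbd4, and every probe set other than the Affymetrix controls. Both genotypes are T-DNA insertion mutants of the labelled gene in the Col-0 ecotype. Whole seedlings were harvested after 10 days on MS medium, a standard salt medium for plant culture, and received no further treatment. The series also holds 3 arrays of Col-0 wild type and 3 of the mutant mbd11. Wild-type levels are given below as a description only, and neither group entered the test. Which insertion alleles were used is not given in the sources used here. MBD4 and MBD6 have no probe set of their own in the assignments used here, so the labels were not checked against the targeted genes.

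Proteins with a methyl-CpG-binding domain recognise cytosine methylation in DNA, a mark that plants place on transposons and on parts of many genes. In Arabidopsis several members of the family have lost the ability to bind methylated CG sites. MBD6 is one of those that bind them, and it takes part in keeping methylated genes silent. A direct comparison of mutants asks in which transcripts the loss of one family member differs from the loss of another.

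Levels are log2 intensities, and each change is the mbd6 mean minus the mbd4 mean, with n = 3 arrays a genotype. A probe set is said to have passed, risen or fallen where limma's moderated, two-sided test gave an adjusted p under 0.05 over all 22746 probe sets. The labels call the arrays biological replicates, so the p-values measure the spread between such samples. With whole seedlings, fewer cells of a type and less RNA per cell cannot be told apart.

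Arrays of mbd4 correlated with arrays of mbd6 at 0.983 to 0.990 over all probe sets. Replicate 3 of mbd4 stood apart from its own group. Its correlation with the other mbd4 arrays was 0.990 and 0.991, while those correlated with each other at 0.997. The signal of plant control transcripts at their 3' end minus that at their 5' end, a measure of RNA integrity, was 2.08 on that array and 1.08 to 1.30 on the other 5. Its 25S rRNA control probe set read 5.69, against 9.75 and 9.61 in the other mbd4 arrays and 6.22 to 6.83 in mbd6. The median SD of a probe set was 0.134 in mbd4, 0.118 in mbd6 and 0.0762 in mbd4 without replicate 3. Markers of shoot and root were both present. Nuclear photosynthesis genes had array medians of 12.72 to 13.03 over the 6 arrays, and PYK10, a beta-glucosidase abundant in roots, averaged 12.37 in mbd4 and 12.42 in mbd6.

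The genotypes differed at 1779 of 22746 probe sets, or 7.82%. Of these, 838 were higher in mbd6 (3.68%) and 941 were lower (4.14%). Most changes were modest, with a median size of 0.62 log2 units among the probe sets that passed. Differences of 2-fold or more were found at 243 probe sets (1.07%), of which 123 were higher (0.541%) and 120 lower (0.528%). The 3 values of one genotype lay wholly above those of the other for 6363 probe sets (28%), and all 1779 that passed were among them. The count was 1963 without mbd4 replicate 3, of which 1531 were shared in direction with the 1779. It was 885 without mbd4 replicate 2, 1157 without mbd4 replicate 1, 943 without mbd6 replicate 2 and 875 without mbd6 replicate 3.

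**Figure D1:**
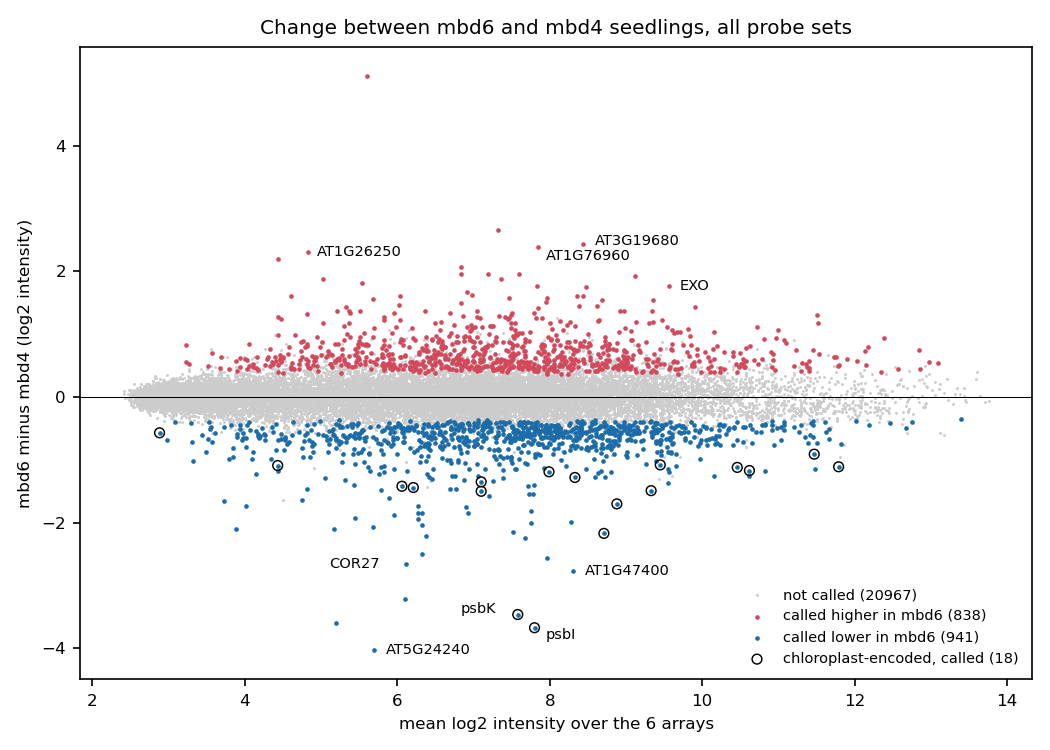
Change between genotypes (mbd6 minus mbd4, log2 intensity, vertical axis) against the mean level over the 6 arrays (log2 intensity, horizontal axis) for each of 22746 probe sets. Red points are the 838 that were higher in mbd6, blue points the 941 that were lower, grey points those that did not pass, and black rings mark the 18 chloroplast-encoded genes that passed, all of them lower in mbd6.

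Signal strength moved with the share that passed. Among probe sets with a mean level under 4, 0.67% passed, against 6.95% at 4 to 6, 10.5% at 6 to 8, 13.9% at 8 to 10 and 13.8% above 10. The 5 nuclear chromosomes had similar shares, from 5.82% on chromosome 2 to 7.48% on chromosome 1. The chloroplast genome had 26.1%, with 18 of its 69 measured genes lower and 0 higher.

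Wild-type means lay closer to mbd4 than to mbd6 for most of the probe sets that passed. This held for 74.1% of the 838 that were higher in mbd6 and for 72.2% of the 941 that were lower, beside 54.6% of all probe sets. Wild type fell between the mutants for 45.3% of the higher and 51.5% of the lower probe sets, beside 29.9% of all. It lay beyond mbd4 for 47% and 37.8%, beside 38.9% of all, so the share of the lower probe sets was near that of all probe sets. It lay beyond mbd6 for 7.64% and 10.6%, beside 31.1% of all. Probe sets that passed were selected for a gap between the mutants, and a wider gap by itself places wild type between them more often. For the shares between and beyond, all probe sets are therefore not a like background. Nor are they one for the nearer mutant, since most did not pass and a small gap leaves the nearer mutant poorly defined.

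The difference of greatest size came from a probe set that is assigned to several genes and cannot be given to one of them. It read 3.00, 3.01 and 3.14 in mbd4 and 7.79, 8.30 and 8.37 in mbd6. Wild type averaged 3.09, so the signal stood at a low level in mbd4 and wild type and was high in every mbd6 array. The change was 5.11 (SE 0.15, adjusted p = 3.65e-07). Because the mbd4 values lie near the bottom of the scale, its exact size is uncertain, and with values under 4 raised to 4 it was 4.16 (adjusted p = 0.0132).

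AT5G24240 had the largest change of any probe set assigned to 1 gene, and it ran the opposite way. It read 7.63, 7.62 and 7.90 in mbd4 and 3.53, 3.72 and 3.81 in mbd6. Every mbd4 array was high, and every mbd6 array was near the low wild-type mean of 3.82. The change was -4.03 (SE 0.12, 95% interval -4.30 to -3.76, adjusted p = 3.65e-07). Since the mbd6 values are near the bottom of the scale, they were also raised to 4, which left a change of -3.72 (adjusted p = 0.00627). This locus had been entered in a list of 4 loci described as silenced by DNA methylation, a list chosen with earlier results of these data known. The other measured member was QQS, an Arabidopsis orphan gene that acts on starch content and whose expression varies with its methylation. QQS averaged 5.58 ± 0.33 (SD) in mbd4 and 5.44 ± 0.26 in mbd6, a change of -0.14 (adjusted p = 0.718).

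**Figure D2:**
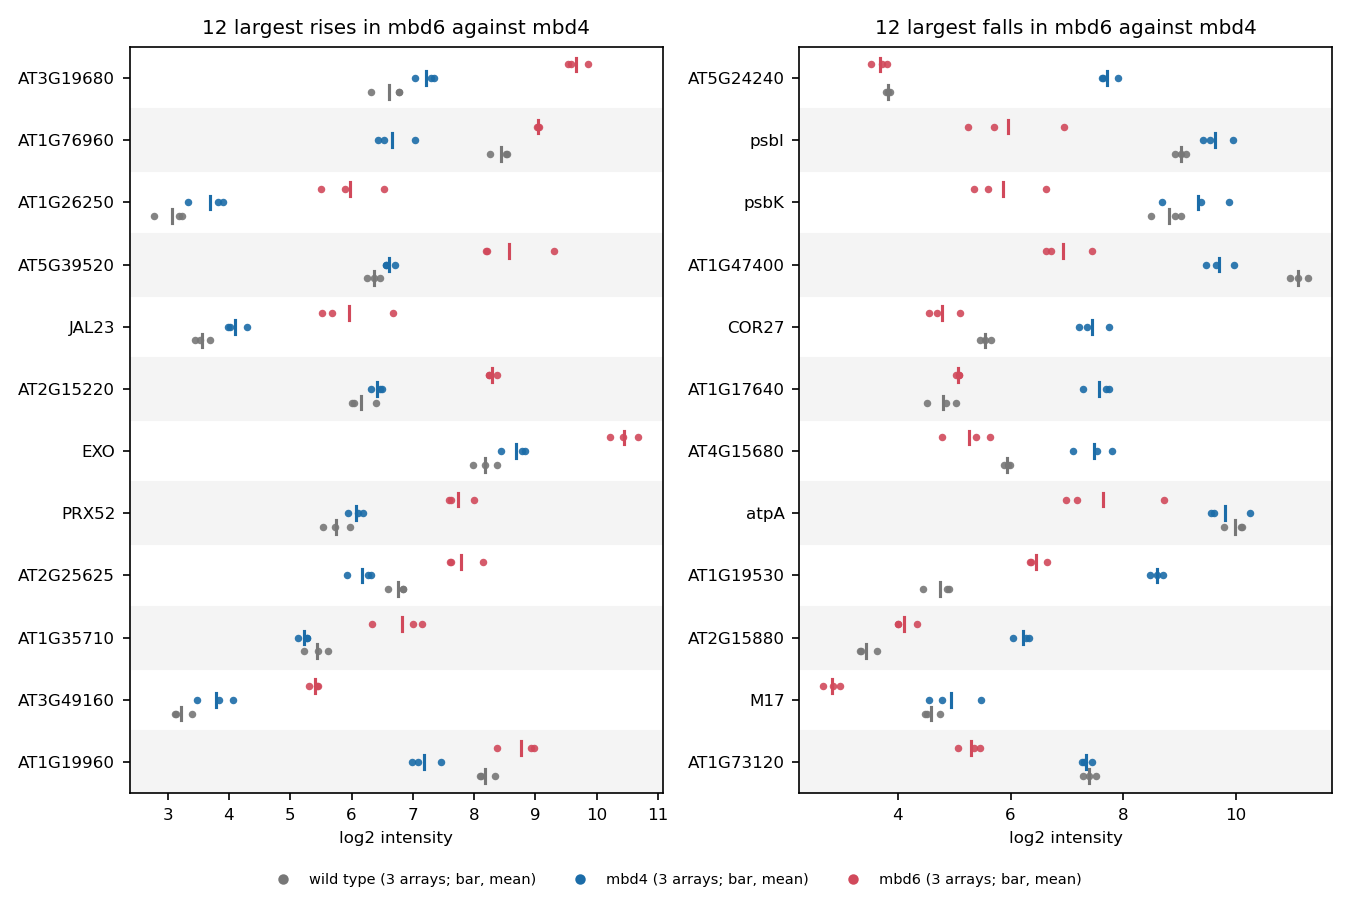
Log2 intensity (horizontal axis) of the 12 genes with the largest rises (left) and the 12 with the largest falls (right) in mbd6 against mbd4. Each point is 1 array, bars are group means of 3, and wild type (grey) is shown for description; of the groups shown, AT5G24240 is high in mbd4 alone and AT3G19680 in mbd6 alone.

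Among the largest rises, AT3G19680 read 7.34, 7.29 and 7.03 in mbd4 and 9.85, 9.53 and 9.58 in mbd6. The groups were far apart, and wild type, at a mean of 6.62, was nearer mbd4. The change was 2.43 (SE 0.13, adjusted p = 2.82e-05). AT1G76960 rose by 2.38 (adjusted p = 6.15e-05), with all mbd6 values between 9.03 and 9.06 and mbd4 values of 6.43, 6.53 and 7.03. Here wild type averaged 8.44 and was nearer mbd6. AT1G26250 rose from a mean of 3.69 to one of 5.98, a change of 2.30 (adjusted p = 0.000891). Its mbd4 values were all under 4, and with low values raised to 4 the change was 1.98 and did not pass (adjusted p = 0.0514).

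EXO (EXORDIUM), a cell wall protein gene that responds to brassinosteroids and is linked to growth, read 8.78, 8.83 and 8.44 in mbd4 and 10.68, 10.22 and 10.43 in mbd6. All mbd6 arrays were higher, and the change was 1.76 (SE 0.15, adjusted p = 0.000264). PRX52, a cell wall peroxidase of lignin formation, averaged 6.08 ± 0.12 (SD) in mbd4 and 7.74 ± 0.23 in mbd6 and rose by 1.67 (adjusted p = 0.000202). JAL23, a jacalin-related lectin, rose by 1.87 (adjusted p = 0.00314), with mbd6 replicate 1 at 6.68 above replicates 2 and 3 at 5.52 and 5.68. The remaining rises of the 12 largest were AT5G39520 at 1.96, AT2G15220 at 1.87, AT2G25625 at 1.62, AT1G35710 at 1.61, AT3G49160 at 1.61 and AT1G19960 at 1.58.

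Because 81 of the 120 single-gene probe sets with 2-fold changes are known here by locus only, the largest changes with a gene symbol were also listed, a choice made after the values were seen. CYP71B22, a cytochrome P450, averaged 6.69 ± 0.09 (SD) in mbd4 and 8.26 ± 0.09 in mbd6 and rose by 1.57 (adjusted p = 7.18e-05). GH9B13, an endoglucanase, rose by 1.26 (adjusted p = 0.000648), and the expansin-like genes EXLB1 and EXLA2 rose by 1.20 and 1.02 (adjusted p = 0.00293 and 0.000788). XTH33 and XTH19, which encode enzymes that cut and rejoin xyloglucan, rose by 1.23 and 1.04 (adjusted p = 0.001 and 0.000471). XTH33 read 5.19, 5.21 and 5.20 in mbd4 and 6.14, 6.50 and 6.66 in mbd6. Over the 9 measured XTH genes, 3 rose (beside 3.68% of all probe sets) and 0 fell, with a median change of 0.19 beside 0.01. The third was XTH16 at 0.63 (adjusted p = 0.0271). ChiC, a class V chitinase, rose by 1.10 (adjusted p = 0.000742), and GAMMA-VPE, a vacuolar processing protease, rose by 1.07 (adjusted p = 0.00113).

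Of 14 measured genes with bZIP symbols, 4 rose and 0 fell, beside 3.68% and 4.14% of all probe sets. The bZIP, UGT and XTH families are described because each had at least 3 members that passed, so their counts are no evidence about the families. BZIP53, a transcription factor of low-energy and amino acid metabolism responses, read 9.52, 9.61 and 9.66 in mbd4 and 10.48, 10.16 and 10.14 in mbd6, without overlap. Its change was 0.67 (adjusted p = 0.00955). The others were the transcription factor genes bZIP44 at 0.54, bZIP58 at 0.52 and BZIP61 at 0.45 (adjusted p = 0.0196, 0.0413 and 0.0447). The UGT symbols, which name glycosyltransferases, covered 47 genes, of which 3 rose and 3 fell, beside the same 3.68% and 4.14%.

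COR27, a cold- and light-regulated gene that acts on the circadian clock, fell. It read 7.35, 7.21 and 7.75 in mbd4 and 5.11, 4.56 and 4.70 in mbd6. The groups were separated by more than 2 log2 units, and wild type, at 5.54, was nearer mbd6. The change was -2.65 (SE 0.18, adjusted p = 7.18e-05). COR27 was not among the measured genes of the cold and dehydration list. Of its 24 genes 4 were measured, of which 1 rose and 0 fell, beside 3.68% and 4.14% of all probe sets. Their median change was 0.39. The list was chosen with earlier results of these data known, so its counts are no evidence about it. COR15B, a cold-induced protein of the chloroplast, rose by 0.66 (adjusted p = 0.018), a call that was lost without mbd4 replicate 1 or without mbd6 replicates 1 or 3 (adjusted p up to 0.11 over all alternatives). COR15A differed by 0.47 and COR47 by 0.31 without passing (adjusted p = 0.0794 and 0.0818). The clock gene GI differed by 0.42 (adjusted p = 0.0587).

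AT1G17640 and AT1G19530 fell by 2.50 and 2.14 (adjusted p = 2.82e-05 for each). AT2G15880 fell by 2.10 and AT1G73120 by 2.04 (adjusted p = 5.75e-05 and 4.53e-05). M17, a late embryogenesis abundant gene, averaged 4.93 ± 0.48 (SD) in mbd4 and 2.84 ± 0.15 in mbd6, a change of -2.10 (adjusted p = 0.000678). All its mbd6 values were under 4, and with low values raised to 4 the change was -0.93 and did not pass (adjusted p = 0.163). Probe sets without an assigned gene fell as far, the first of them by 3.59 and the next by 3.21 (adjusted p = 0.000264 and 8.33e-05). The first was under 4 in all mbd6 arrays, and with low values raised to 4 it passed with a smaller change (adjusted p = 0.0449).

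Among the falling genes with a symbol, CCS, the copper chaperone of superoxide dismutase, read 10.23, 10.36 and 9.88 in mbd4 and 8.98, 8.82 and 9.10 in mbd6. Its change was -1.19 (adjusted p = 0.00127). CRR21, a pentatricopeptide repeat protein that edits the chloroplast ndhD transcript, averaged 7.15 ± 0.08 (SD) in mbd4 and 6.14 ± 0.14 in mbd6 and fell by 1.01 (adjusted p = 0.001). Cpn60beta4, a chloroplast chaperonin subunit that folds the NdhH protein, fell by 1.05 (adjusted p = 0.00514). HYH, a homolog of the light-signalling factor HY5, fell by 1.16 (adjusted p = 0.0023). MCCA, a subunit of the leucine-degrading methylcrotonyl-CoA carboxylase, fell by 1.15 (adjusted p = 0.00217), and the organic cation transporter OCT5 also by 1.15 (adjusted p = 0.000742). The methionine sulfoxide reductase MSRB6 fell by 1.05 (adjusted p = 0.00399) and the thionin THI2.2 by 1.04 (adjusted p = 0.00514). PAP85, a vicilin-like seed protein, fell by 0.96 (adjusted p = 0.0124), with all mbd6 values under 4. With low values raised to 4 the change was -0.34 (adjusted p = 0.439), and it also did not pass without mbd4 replicate 2. Of 8 seed storage markers, 0 were measured.

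Most of the chloroplast-encoded genes read lower in mbd6, and a part of them passed. The median change of the 69 measured genes was -0.68, beside 0.01 over all probe sets, and 18 fell (26.1%, beside 4.14% of all probe sets). None rose by limma's test, where 1 was higher and 41 were lower at an unadjusted p under 0.05. The chloroplast genome encodes subunits of the photosynthetic complexes, part of the chloroplast ribosome and the plastid RNA polymerase. Its transcripts mostly lack the poly(A) tail from which this labelling method starts, so their signals come from a small share of the RNA.

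psbI and psbK, which encode small subunits of photosystem II, fell furthest. psbI read 9.95, 9.41 and 9.54 in mbd4 and 6.94, 5.70 and 5.24 in mbd6. All mbd6 arrays were lower by more than 2 log2 units, and replicate 1 was the highest of them. The change was -3.67 (SE 0.36, 95% interval -4.48 to -2.87, adjusted p = 0.000648). psbK read 9.88, 9.38 and 8.69 in mbd4 and 6.62, 5.35 and 5.60 in mbd6, a change of -3.46 (SE 0.35, adjusted p = 0.000742). Wild type averaged 9.02 for psbI and 8.81 for psbK, close to mbd4.

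The falls were spread over the functional groups. Among 15 psb genes of photosystem II, 3 fell, with a median change of -0.42, and among 5 psa genes of photosystem I, 2 fell, with a median of -0.70. psaI, a small subunit of photosystem I, fell by 1.70 (adjusted p = 0.0177), and psaB, a core subunit of its reaction centre, fell by 1.11 (adjusted p = 0.0207). Of 6 atp genes, atpA, the alpha subunit of ATP synthase, fell by 2.17 (SE 0.39, adjusted p = 0.0107), while atpB and atpE, its beta and epsilon subunits, had changes of -0.58 and -0.60 (adjusted p = 0.191 and 0.0815). The 10 ndh genes of the NAD(P)H dehydrogenase-like complex had a median of -0.44, and ndhD, ndhK and ndhJ fell by 1.50, 1.35 and 1.28. In the same complex ndhI had a change of -0.11 (adjusted p = 0.648) and ndhH one of 0.81 (adjusted p = 0.196).

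rbcL, the large subunit of Rubisco, read 10.24, 10.06 and 9.91 in mbd4 and 9.22, 8.51 and 8.02 in mbd6, without overlap. It fell by 1.49 (SE 0.25, adjusted p = 0.00753). Ribosomal protein genes numbered 15, of which rps16, rps2 and rpl14 fell by 1.42, 1.19 and 1.17, with a median of -0.81 over the group. The 4 rpo genes of the plastid RNA polymerase had a median of -0.63, and 0 of them passed. ycf3, an assembly factor of photosystem I, matK, an intron maturase, and clpP, a protease subunit, fell by 1.44, 1.08 and 0.91.

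Along the chloroplast map, some genes that fell stood side by side. The consecutive measured genes matK, rps16, psbK, psbI and atpA all passed, as did ndhJ with ndhK and petL with petG. In all, 9 of the 18 stood next to another that passed. petG was under 4 on all 6 arrays, and its fall of 0.57 was -0.00 with low values raised to 4. Neighbouring chloroplast genes are often transcribed together, so these are not independent measurements.

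**Figure D3:**
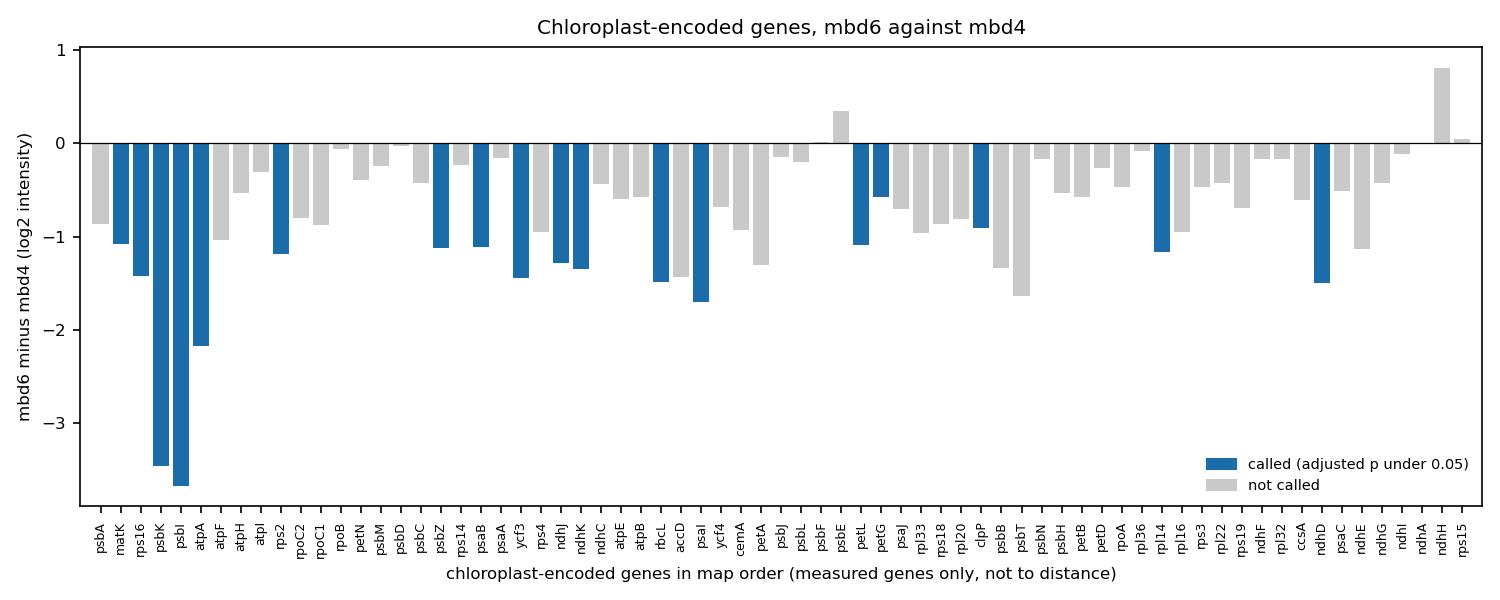
Change in mbd6 against mbd4 (log2 intensity, vertical axis) of the 69 measured chloroplast-encoded genes in map order, spaced evenly. Blue bars are the 18 that passed and grey bars those that did not; the deepest bars, psbI and psbK, stand side by side among 5 consecutive genes that fell.

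Levels of the chloroplast-encoded genes varied within each genotype as well. Array medians were 9.71, 9.02 and 8.43 in mbd4 and 8.44, 7.67 and 7.15 in mbd6, so the groups overlapped, with mbd6 replicate 1 just above mbd4 replicate 3. In both genotypes the medians fell from replicate 1 to replicate 3. Against wild-type means the median over the 69 genes was -0.08 in mbd4, with 44 of 69 lower, and -0.84 in mbd6, with 68 of 69 lower. The mbd4 array with the lowest median also had the 3' to 5' difference of 2.08 and the low 25S rRNA signal given above. With the 3' to 5' difference as a covariate the median change was -0.91 and 30 genes fell. That difference was 1.08 to 1.30 on the other 5 arrays, so the fit mainly sets mbd4 replicate 3 apart. It cannot separate RNA integrity from other traits of that array. The part of the rRNA signal in the result was not tested.

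The number of chloroplast-encoded genes that fell depended on single arrays. It was 29 without mbd4 replicate 3 and 30 without mbd6 replicate 1, but 8 and 7 without mbd4 replicates 1 and 2, and 5 and 7 without mbd6 replicates 2 and 3. The median change stayed between -1.06 and -0.44 across these 6 sets. The calls of psaI and ndhD were lost without mbd4 replicates 1 or 2 or mbd6 replicates 2 or 3, and that of atpA without mbd6 replicate 2 (highest adjusted p over all alternatives 0.174, 0.167 and 0.142). With values under 4 raised to 4, 0 passed by limma and 18 were lower at an unadjusted p under 0.05. That setting left 5424 probe sets with no spread, which changes the moderation of all others.

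Of 32 nuclear genes of photosynthesis, 6 were measured, and their median change was 0.03. LHCB4.2, an antenna protein of photosystem II, rose by 0.45 (adjusted p = 0.0471), and PRK, the phosphoribulokinase of the Calvin cycle, fell by 0.44 (adjusted p = 0.029). LHCB4.2 did not pass when any 1 array was left out, and PRK did not pass when any 1 array other than mbd4 replicate 3 was left out. AT5G15700, in the list of nuclear genes for plastid transcription, had a change of -0.13 (adjusted p = 0.584). None of 3 measured root markers passed by limma, with a median of 0.19 and 1 higher at an unadjusted p under 0.05.

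Of 16 mitochondrion-encoded genes, 5 fell and 0 rose, beside 4.14% and 3.68% of all probe sets, with a median change of -0.26 beside 0.01. ccb452, a cytochrome c maturation gene, fell by 0.78 (adjusted p = 0.00364), as did nad4 (adjusted p = 0.013). nad1 and nad9 fell by 0.72 and 0.62 and nad4L by 0.51 (adjusted p = 0.00579, 0.0359 and 0.0366), and all nad genes encode subunits of respiratory complex I. Leaving out mbd6 replicate 2 reduced the count to 2, and leaving out mbd4 replicate 2 or mbd6 replicate 3 reduced it to 3. nad4L had levels of 3.55 to 4.36, near the bottom of the scale. For ccb452, nad9 and nad4L, wild-type means were 5.65, 3.71 and 3.79. These lay nearer mbd6 (5.53, 3.86 and 3.67) than mbd4 (6.31, 4.48 and 4.18). For nad4 and nad1, wild type averaged 6.59 and 5.41, nearer mbd4 (6.95 and 5.69) than mbd6 (6.17 and 4.97).

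Part of the iron deficiency list was lower in mbd6. Of 35 genes on the list, 11 were measured, 5 of which fell and 1 rose, beside 4.14% and 3.68% of all probe sets. Like all lists here, it was chosen with earlier results of these data known, so its counts are no evidence about the list. The median change was -0.20. AT1G47400 read 9.65, 9.47 and 9.97 in mbd4 and 7.44, 6.71 and 6.62 in mbd6. Both mutants were below wild type, which averaged 11.11, and mbd6 was the lowest. The change was -2.77 (SE 0.21, adjusted p = 0.000168).

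BHLH101, an iron-deficiency-induced transcription factor of iron uptake, read 7.75, 7.79 and 7.80 in mbd4 and 6.68, 5.75 and 5.65 in mbd6. The groups did not overlap, and mbd6 replicate 1 was the nearest to mbd4. It fell by 1.75 (SE 0.23, adjusted p = 0.00245) from an mbd4 mean that was itself below the wild-type mean of 8.88. PYE (POPEYE), a transcription factor that restrains iron distribution genes, averaged 6.78 ± 0.07 (SD) in mbd4, 5.84 ± 0.12 in mbd6 and 7.92 in wild type. It fell by 0.94 (adjusted p = 0.00105). AT1G74770 and AT1G18910 fell by 1.32 and 0.78 (adjusted p = 0.00113 and 0.0158), the latter not without mbd6 replicates 1 or 2.

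The transcription factors known to act above BHLH101 and PYE did not pass. ILR3 had a change of 0.33 (adjusted p = 0.233), bHLH104 one of 0.01, bHLH115 one of -0.15, bHLH34 one of -0.20 and bHLH121 one of -0.16. AT3G13610, listed in RefSeq with the synonym F6'H1, the enzyme that starts synthesis of iron-mobilising coumarins, went the other way. It read 8.25, 8.51 and 8.37 in mbd4 and 9.02, 9.26 and 9.09 in mbd6, and rose by 0.74 (adjusted p = 0.00475). Of 9 iron storage and sufficiency genes, 0 were measured.

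**Figure D4:**
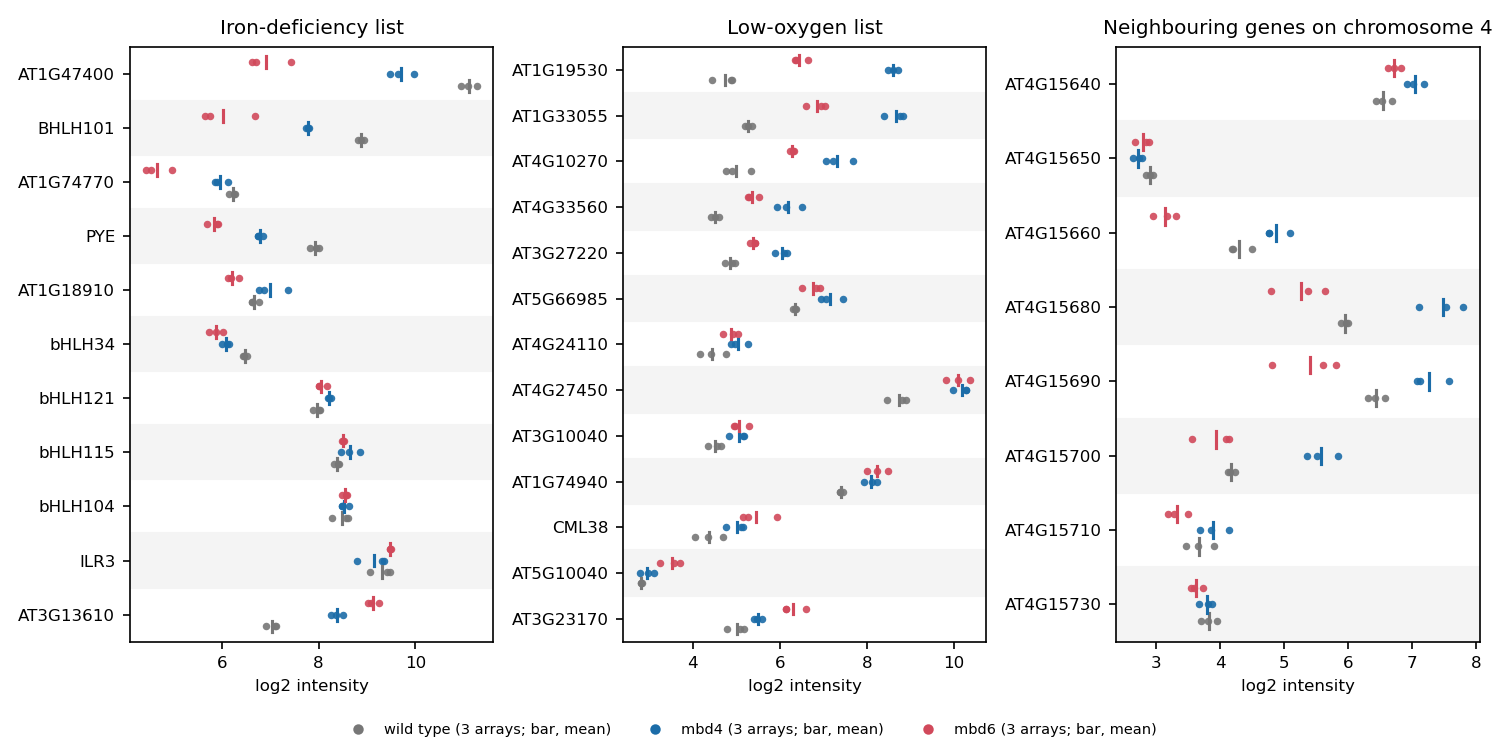
Log2 intensity (horizontal axes) by array for the measured iron deficiency genes (left), the measured low-oxygen genes (middle) and a stretch of neighbouring genes on chromosome 4 (right). Points are arrays and bars are means of 3; mbd6 lies lowest for AT1G47400, BHLH101 and PYE, while AT1G19530 and AT1G33055 are highest in mbd4 and lowest in wild type.

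Of 30 genes of the low-oxygen response, 13 were measured, of which 5 fell and 2 rose, beside 4.14% and 3.68% of all probe sets. This list too was chosen with earlier results known, so its counts are no evidence about it. The median change was -0.14. AT1G19530 read 8.60, 8.48 and 8.70 in mbd4, 6.64, 6.35 and 6.36 in mbd6 and 4.75 on average in wild type. AT1G33055 showed the same order, with means of 8.66 ± 0.23 (SD) in mbd4, 6.85 ± 0.23 in mbd6 and 5.27 in wild type, and fell by 1.81 (adjusted p = 0.000264). In both genes mbd6 lay between wild type and mbd4. AT4G10270, AT4G33560 and AT3G27220 fell by 1.03, 0.84 and 0.67 (adjusted p = 0.00399, 0.00987 and 0.00643), again with wild type lowest.

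AT5G66985 showed the same order without passing, with means of 7.15 in mbd4, 6.76 in mbd6 and 6.34 in wild type. Its change was -0.39 (adjusted p = 0.172). Several other low-oxygen genes did not follow. AT3G23170 rose by 0.81 (adjusted p = 0.00792), and AT5G10040 rose by 0.56 (adjusted p = 0.0379), with means of 2.95 and 3.51 near the bottom of the scale. Leaving out any 1 array other than mbd6 replicate 1 reduced the 2 rises to 1. AT4G27450 had a change of -0.09, AT1G74940 one of 0.15 and CML38, a calmodulin-like protein gene, one of 0.44 (adjusted p = 0.797, 0.607 and 0.232).

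Of 14 touch and calcium stress genes, 6 were measured, of which 3 rose and 0 fell, beside 3.68% and 4.14% of all probe sets. Earlier results were also known when this list was chosen, so its counts are no evidence about it. The median change was 0.74, beside 0.01. Beside AT3G19680, AT4G27280 read 9.14, 9.22 and 9.20 in mbd4 and 10.73, 10.59 and 10.52 in mbd6, a clear separation. It rose by 1.43 (SE 0.10, adjusted p = 8.92e-05). STZ, a zinc finger repressor induced by many stresses, rose by 1.08 (adjusted p = 0.00547), with wild type at 7.18 close to the mbd4 mean of 7.49. AT1G05575, AT5G10695 and AT2G01300 had changes of 0.39, 0.17 and -0.07 and did not pass.

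Defence and hormone lists showed single genes. Among jasmonate and ethylene defence genes, 6 of 21 were measured and OSM34, an osmotin-like defence protein, rose by 0.75 (adjusted p = 0.00514). The defensin PDF1.2 averaged 11.59 in mbd4, 11.52 in mbd6 and 7.88 in wild type, a change between the mutants of -0.08 (adjusted p = 0.867). PDF1.2b had a change of -0.09 (adjusted p = 0.758). None of the 3 measured salicylate defence genes passed by limma, with a median of 0.41 and 2 higher at an unadjusted p under 0.05. WES1 (GH3.5), which conjugates auxin to amino acids, averaged 8.63 ± 0.02 (SD) in mbd4 and 9.53 ± 0.25 in mbd6. It was the only one of 7 measured auxin response genes to pass, at 0.90 (adjusted p = 0.00403), beside 3.68% of all probe sets that rose. The median change of the 7 was -0.16, and at an unadjusted p under 0.05, 1 was higher and 3 were lower.

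Heat shock, phosphate and pigment lists held few genes that passed. Of 8 measured heat shock genes, AT5G51440 alone passed and fell by 0.81 (adjusted p = 0.00557). Of 5 measured phosphate genes, 0 rose and 1 fell, beside 3.68% and 4.14% of all probe sets, with a median change of 0.01. LPR1, a ferroxidase of the root response to low phosphate, fell by 0.82 (adjusted p = 0.00728), while its relative LPR2 had a change of 0.01 (adjusted p = 0.968). AT5G20790 and AT1G08310 went the other way, with changes of 0.54 and 0.57 that did not pass (adjusted p = 0.105 and 0.131). At an unadjusted p under 0.05, 2 of the 5 were higher and 1 was lower. The median was -0.29 over 6 flavonoid and anthocyanin genes. None of them passed by limma, and 0 had an unadjusted p under 0.05. DME, a DNA demethylase and the single measured gene of DNA methylation and silencing machinery, had a change of 0.11 (adjusted p = 0.601).

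**Figure D5:**
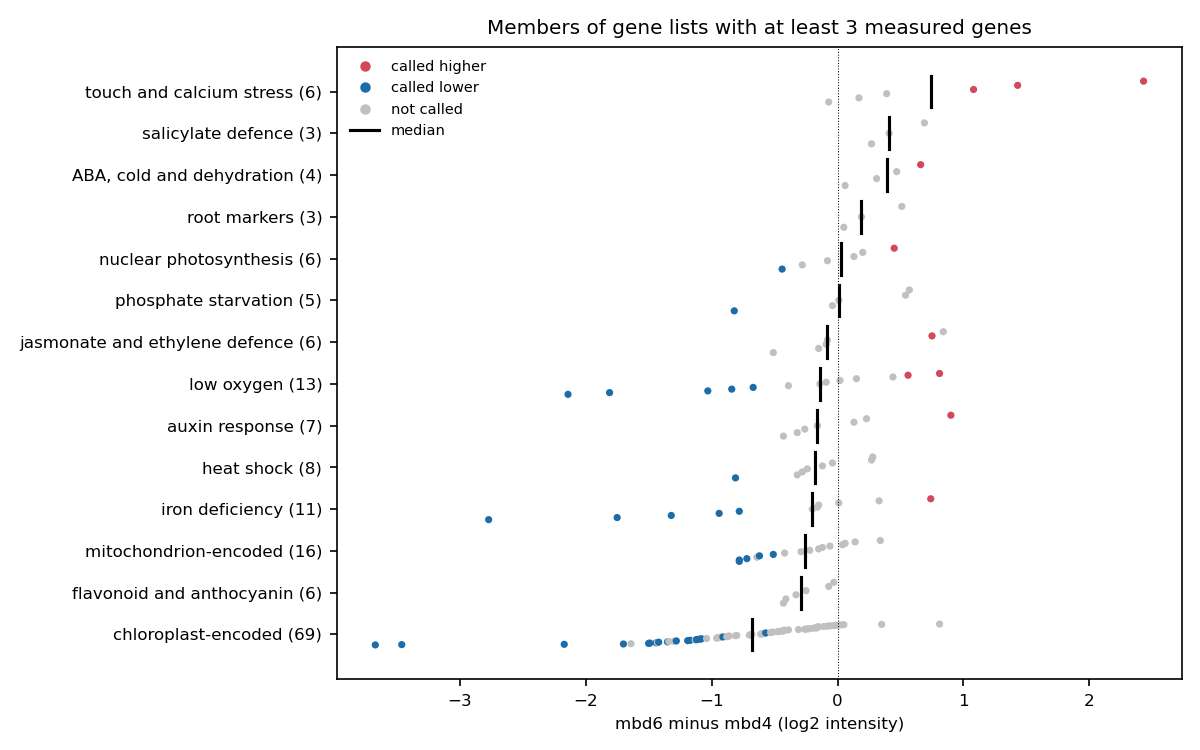
Change in mbd6 against mbd4 (log2 intensity, horizontal axis) of each measured member of the lists with at least 3 measured genes, ordered by median. All lists were chosen with earlier results of these data known. Red and blue points rose or fell, grey points did not pass and black bars are list medians; chloroplast-encoded genes have the lowest median, -0.68, and touch and calcium stress genes the highest, 0.74.

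Neighbouring nuclear genes that changed together were looked for after the values were seen, as runs of at least 3 consecutive measured genes that passed in one direction. On chromosome 4, AT4G15660, AT4G15680, AT4G15690, AT4G15700 and AT4G15710 all fell, by 1.73, 2.21, 1.84, 1.64 and 0.57 (adjusted p = 0.000158, 0.000833, 0.0023, 0.001 and 0.0359). AT4G15680 read 7.10, 7.53 and 7.79 in mbd4 and 4.79, 5.64 and 5.38 in mbd6, and wild type averaged 5.94. AT4G15660 and AT4G15710 were under 4 in all mbd6 arrays. With low values raised to 4 their changes were -0.88 and -0.05, and AT4G15710 did not pass (adjusted p = 0.0376 and 0.737). AT4G15680 and AT4G15690, with no value under 4, kept their changes but did not pass in that fit either (adjusted p = 0.0504 and 0.0732). That setting changes the moderation of all probe sets, as given above. AT4G15670 had no probe set of its own. The nearest measured genes on either side, AT4G15650 and AT4G15730, were under 4 on all 6 arrays, where a fall is hard to see. Beyond AT4G15650, AT4G15640 averaged 7.03 in mbd4 and 6.72 in mbd6, a change of -0.32 that did not pass (adjusted p = 0.124). These data do not show exactly where the run ends. Similar neighbouring genes can share probe signal, and that was not tested here.

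A run of 3 on chromosome 2 rose. It held CHI, a chitinase, at 0.80 (adjusted p = 0.00251), AT2G43580 at 1.36 (adjusted p = 0.000833) and AT2G43590 at 0.58 (adjusted p = 0.00878). AT2G43580 read 4.95, 4.95 and 4.58 in mbd4 and 5.99, 6.20 and 6.37 in mbd6. A pair of runs on chromosome 1 fell. AT1G12030, AT1G12070, AT1G12080 and AT1G12100 fell by 1.93, 0.81, 0.59 and 0.47. Of these, AT1G12070 was under 4 in all mbd6 arrays and AT1G12100 was under 4 on all 6 arrays. In the other run, AT1G10640, AT1G10650 and AT1G10660 fell by 0.63, 0.59 and 0.71.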

How the data were processed

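Total RNA of whole seedlings was labelled with biotin by a 3' IVT protocol and hybridised to Affymetrix arrays, per the labels' protocols. The deposited values are log2 intensities that the authors made with RMA, and R 2.11 is named beside it, per the submitters' processing notes. No value was missing among the 22810 probe sets of the table, and no arrays were identical. The 64 controls only described the arrays. Of the 22746 tested, 13513 belong to 1 gene, 503 match several and 8730 have no gene. Gene names came from the platform's probe table and a RefSeq table of TAIR10.1, which matched 13436 probe sets.

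Each probe set was fitted with limma 3.58.1 in R 4.3.3 (lmFit, eBayes) to the 3 mbd6 and 3 mbd4 arrays, with no other term, 4 residual and 5.54 prior degrees of freedom, two-sided p-values and Benjamini-Hochberg adjustment over all 22746. The code was tested on simulated data. The number of arrays limits the precision. Named genes are the 12 largest changes each way among single-gene probe sets that passed without overlap, up to 6 members that passed of each list, and up to 3 of the brightest that did not where any did. Lists used 1 probe set a gene, the brightest, and families were symbols with at least 8 measured genes and 3 that passed. All lists and the comparison itself were chosen with earlier results of these data known. Of 13 MBD family genes, 0 were measured. The 16 alternatives are 6 fits that leave out an array and 10 others. Over all probe sets, samples with the same replicate number did not deviate together (r = -0.111, 0.00905 and -0.00291), so the fit did not pair them. For the chloroplast-encoded genes, array medians fell from replicate 1 to replicate 3 in both genotypes. Whether the numbers pair the samples for those genes was not tested. Tables were handled with pandas 2.3.3 and numpy 2.4.6 in Python 3.11.15, and figures drawn with matplotlib 3.10.9.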

Additional observations from a re-analysis of the deposited data

How the results depend on the processing

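The count of probe sets that passed (1779, with 838 higher, 941 lower and 243 at least 2-fold) was 467 (216 and 251) with all 12 arrays in the fit, 618 (291 and 327, and 131 at least 2-fold) with values under 4 raised to 4, and 3149 (1621 and 1528) with array quality weights. With the 3' to 5' difference as a covariate 2568 passed (1318 and 1250). All 467 of the first were shared in direction with the 1779, as were 515 of the 618, 1777 of the 3149 and 1779 of the 2568. With the 9 arrays other than mbd11 in the fit 2470 passed, of which 1757 were shared. Leaving out 1 array gave 875 to 1963, with 407 to 1001 higher, 467 to 962 lower and 239 to 254 at least 2-fold. With the replicate number as a block 1661 passed, of which 1477 were shared. Over all probe sets, samples of the same number did not deviate together. In that fit 36 chloroplast-encoded genes fell. Their count of 18 became 10 with 12 arrays, 25 with the 9 arrays other than mbd11 and 0 with low values raised to 4. It was 9 with an intensity trend and robust prior, 46 with array weights, 30 with the covariate, and 5 to 30 when 1 array was left out. Their median change of -0.68 stayed below 0 in every fit and was -1.06 to -0.44 when 1 array was left out.

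List medians near 0 changed sign. The jasmonate and ethylene median of -0.08 was 0.09 without mbd6 replicate 1 (from -0.15 to 0.09 over the fits that leave out 1 array) and 0.04 with array weights. The phosphate median of 0.01 was -0.01 without mbd4 replicates 1 or 2 and -0.06 without mbd6 replicate 1 (from -0.06 to 0.11 over those fits), and the nuclear photosynthesis median of 0.03 was -0.04 after quantile normalization. The cause was not tested. Of 68 named genes that passed, 27 did so under every alternative run and 0 changed direction. When some array was left out 11 did not pass, and with all 12 arrays 20 did not. With low values raised to 4, 37 did not pass, but that setting changes the moderation of every probe set. BHLH101 and AT5G39520, with no value under 4, kept their changes of -1.75 and 1.96 there without passing (adjusted p = 0.0746 and 0.0759). The 37 are therefore not all genes that depend on low values.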
